A study of Mus musculus with 6 samples.

Results

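The genes described here are those of sterol and fatty acid synthesis, with the factors that sense sterols, move them inside the cell and export them. They were taken from a list of 42 gene names by the gene symbol of the array's annotation. The list was chosen with earlier results of these data known. One of the names, Sc4mol, is an older symbol of Msmo1, which leaves 41 genes. Of these, 39 are named on the array, by 92 of its 45101 probe sets, and Acat2 and Nr1h2 are not analysed here. The study compared flow-sorted double negative thymocytes, which carry neither CD4 nor CD8 and precede the other T cell stages of the thymus, between mice lacking both Egr1 and Egr3 and wild type mice. Egr1 and Egr3 encode zinc finger transcription factors that pre-T cell receptor signalling switches on. Each group has 3 single-colour arrays, 1 per animal according to the labels, although sample titles speak of whole thymus. How the alleles were disrupted, and the strain, age and sex of the mice, are not stated in the labels.

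Cells make cholesterol from acetyl-CoA through mevalonate, isoprenoid diphosphates, squalene and lanosterol, and make fatty acids from the same acetyl-CoA through malonyl-CoA. Transcription of both routes is driven by the SREBP factors, which the escort protein SCAP carries to the Golgi for cleavage when membrane sterol is low, while INSIG proteins hold SCAP in the endoplasmic reticulum when sterol is high. Excess sterol is exported by the transporters ABCA1 and ABCG1, whose genes are switched on by the liver X receptors, the oxysterol-sensing nuclear receptors known as LXR. Dividing lymphocytes are known to raise sterol and fatty acid synthesis for membrane growth.

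The promoters of the sterol branch share a short sequence that the choice of genes did not use. The CCAAT box, bound by the factor NF-Y that is known to act beside SREBP, was searched on both strands in RefSeq promoter windows of build GRCm38.p6, each running from 250 bases before to 50 bases after a start site. It was present in at least 1 window of 14 of the 15 sterol synthesis genes with a window, or 14 of 18 windows, and of 5 of 8 fatty acid synthesis genes, or 5 of 9 windows. For comparison, 37.4% of all 32851 windows and 41.1% of the 27025 genes with a window held it. The letters TCACNCCAC, a form of the sterol regulatory element that SREBP binds, occurred in 1.24% of all windows and, among 42 windows of 32 members, only in that of Hmgcs1. The letters GCGNGGGCG, bound by EGR proteins, occurred in 5.55% of all windows and in windows of 4 members, Dhcr7, Insig1, Scap and Elovl1. These are matches of letters only. Of the 4 sterol genes that fell, Idi1 and Lss have a window and both hold the box, as do Tm7sf2, Mvk and Ebp, which did not fall. Fdft1 and Sqle have no window in the table used.

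The 6 windows below are those of sterol genes along the route, of the fatty acid synthase gene and of the efflux gene that rose. They are written 5′ to 3′ on the strand of the gene, with capitals for the CCAAT box, for its reverse complement ATTGG and, in Hmgcs1 only, for the sterol regulatory element. The Hmgcs1 window is chr13:119690101-119690400, plus strand. The Idi1 window is chr13:8885356-8885655, plus strand. The Lss window is chr10:76531355-76531654, plus strand. The Cyp51 window is chr5:4104648-4104947, minus strand. The Fasn window is chr11:120824498-120824797, minus strand, and a CCAAT and an ATTGG overlap in it at position -59 from the start site. The Abca1 window is chr4:53159846-53160145, minus strand, with no match to any of the 3 motifs.
Hmgcs1: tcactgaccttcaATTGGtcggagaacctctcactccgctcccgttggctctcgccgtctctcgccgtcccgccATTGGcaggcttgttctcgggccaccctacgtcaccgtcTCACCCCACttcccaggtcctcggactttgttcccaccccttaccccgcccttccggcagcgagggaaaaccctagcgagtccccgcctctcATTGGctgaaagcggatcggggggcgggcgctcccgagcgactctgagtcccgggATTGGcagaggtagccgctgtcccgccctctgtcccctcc
Idi1: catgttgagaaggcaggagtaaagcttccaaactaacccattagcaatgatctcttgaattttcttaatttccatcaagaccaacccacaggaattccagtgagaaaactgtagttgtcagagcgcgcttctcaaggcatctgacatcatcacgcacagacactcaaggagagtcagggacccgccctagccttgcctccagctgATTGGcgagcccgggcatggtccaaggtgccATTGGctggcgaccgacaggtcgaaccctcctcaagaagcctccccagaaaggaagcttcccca
Lss: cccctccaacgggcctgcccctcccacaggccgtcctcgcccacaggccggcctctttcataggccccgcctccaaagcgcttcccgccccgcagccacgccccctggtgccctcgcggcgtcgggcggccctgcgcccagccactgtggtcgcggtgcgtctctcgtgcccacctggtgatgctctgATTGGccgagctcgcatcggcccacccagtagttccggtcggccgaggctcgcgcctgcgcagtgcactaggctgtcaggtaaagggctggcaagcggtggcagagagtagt
Cyp51: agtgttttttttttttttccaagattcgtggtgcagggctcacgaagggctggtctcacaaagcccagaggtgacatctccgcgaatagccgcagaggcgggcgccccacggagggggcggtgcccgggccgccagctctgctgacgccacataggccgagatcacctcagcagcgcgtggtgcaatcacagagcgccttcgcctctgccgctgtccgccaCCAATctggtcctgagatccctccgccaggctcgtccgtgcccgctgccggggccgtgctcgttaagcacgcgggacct
Fasn: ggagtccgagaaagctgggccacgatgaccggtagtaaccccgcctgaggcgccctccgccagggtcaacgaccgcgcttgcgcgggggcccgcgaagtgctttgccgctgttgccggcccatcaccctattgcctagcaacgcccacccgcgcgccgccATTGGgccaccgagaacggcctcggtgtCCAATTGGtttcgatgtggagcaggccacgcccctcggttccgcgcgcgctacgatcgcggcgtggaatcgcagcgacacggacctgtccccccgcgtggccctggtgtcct
Abca1: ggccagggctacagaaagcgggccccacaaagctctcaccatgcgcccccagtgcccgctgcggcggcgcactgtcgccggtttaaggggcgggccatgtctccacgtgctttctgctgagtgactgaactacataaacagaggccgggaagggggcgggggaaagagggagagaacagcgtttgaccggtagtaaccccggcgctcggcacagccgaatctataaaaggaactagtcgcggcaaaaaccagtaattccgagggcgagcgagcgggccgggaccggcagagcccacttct

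The arrays themselves were examined before the members. The deposited intensities had medians between 19.9 and 23.1, and the brightest of 27 bacterial control probe sets read between 19 and 29.9 on each array. For Egr1 the arrays labelled double knockout gave 1757, 1696 and 1221, against 508, 509 and 455 for those labelled wild type (a ratio of 3.03, limma adjusted p = 0.00312), so its signal was higher where the gene should be lost. The brighter Egr3 probe set gave 34.4, 45.8 and 32.9 in the arrays labelled double knockout, against 92.2, 83.1 and 30.8 in those labelled wild type, and did not pass (-0.59, SE 0.32, adjusted p = 0.368). Where these probe sets lie relative to the disrupted parts is not stated, and the groups are therefore named by their labels throughout, as is the direction of each change. The X-linked Xist, which is transcribed in female cells, read 4798, 6015 and 3910 in the arrays labelled double knockout, against 1439, 3977 and 5311 in those labelled wild type. The Y-linked Eif2s3y read 199, 265 and 186 in the arrays labelled double knockout, against 476, 13.2 and 0.625 in those labelled wild type. Other Y-linked genes were dim outside wild type replicate 1. The brightest Kdm5d probe set read 17.5, 29.5 and 10.3 in the arrays labelled double knockout, against 144, 8.81 and 2.52 in those labelled wild type, and that of Uty read 11.4, 11.6 and 23.4 in the arrays labelled double knockout, against 63.7, 10.5 and 12.4 in those labelled wild type. Wild type replicate 1 thus read Xist and all 3 Y-linked genes, while Eif2s3y was the only 1 of these Y-linked genes above the brightest control on all the arrays labelled double knockout. Whether each array holds RNA of 1 animal was not tested. The summed intensity of 12 granulocyte markers lay in a range of 20647 to 30072 for the arrays labelled double knockout, and was 12322, 27514 and 352 on wild type replicates 1, 2 and 3. Of the coreceptor genes, Cd4 was at or below the brightest control on all 6 arrays, Cd8a read 68.5 to 197 and Cd8b1 read 65.9 to 137. Whether the RNA came from sorted cells or whole thymus was not tested. Summed markers of double negative thymocytes, 8 genes, ranged from 15337 to 17394 on the arrays labelled double knockout and from 24941 to 35136 on those labelled wild type, and 3 of the 8, Ptcra, Il2ra and Dntt, fell. Fewer cells of a type and less RNA per cell cannot be told apart in such bulk samples.

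Across the members, 6 of 39 genes changed on their brightest probe set, with 5 lower and 1 higher in the arrays labelled double knockout. Those that fell were Idi1, Fdft1, Sqle and Lss of the sterol branch and Fasn of the fatty acid branch, and the gene that rose was the efflux transporter Abca1. A change here is an adjusted p under 0.05 in limma on log2 of intensity plus 16. It was found for 5.03% of the 27022 probe sets tested, 2.11% lower and 2.91% higher. With 1 probe set kept for each gene before the adjustment, 920 of 13187 genes passed, 374 lower and 546 higher. In that setting 7 of the 39 members passed, 5 lower and 2 higher. All 39 genes had a probe set bright enough for the test, and 80 of the 92 probe sets were tested, of which 8 were lower and 1 higher. The median log2 change of the 39 genes was -0.31, against 0.003 over all probe sets tested and -0.013 with 1 probe set for each gene. In 20 of the 39 genes the groups did not overlap on the brightest probe set, which is 51.3%. The share over all genes by brightest probe set was not computed, so only the count by probe set has a like share. Counted by probe set, the groups did not overlap in 29 of the 80 tested, or 36.2%, against 24.3% of all probe sets tested. The members were chosen with earlier results of these data known, so no test was made of these shares. Without double knockout replicate 1 or 3 or wild type replicate 2 the number of genes that passed was 3, and without wild type replicate 3 it was 11. Calls over all probe sets tested moved the same way, with 382, 707 and 696 without those first 3 arrays and 2767 without wild type replicate 3, against 1358 with all 6.

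**Figure D1:**
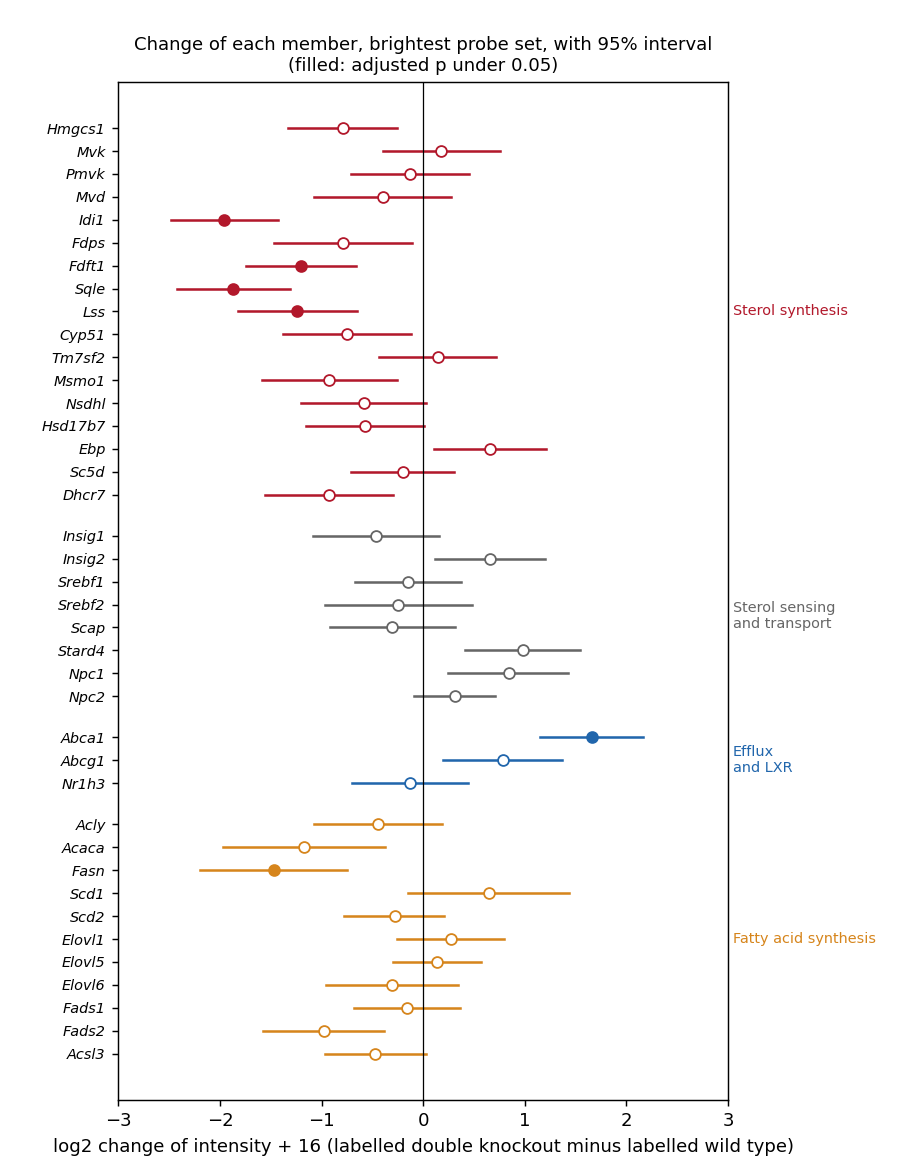
Log2 change of intensity plus 16 (horizontal axis, labelled double knockout minus labelled wild type) of the brightest probe set of the 39 measured members, in pathway order within 4 groups; points are estimates from 3 arrays per group, lines are 95% intervals and filled points passed the test. Idi1 at -1.96 and Sqle at -1.87 lie farthest to the left and Abca1 at 1.66 farthest to the right.

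Within the sterol branch, 4 of 17 measured enzymes fell, none rose, and 14 of the 17 had a change below 0. With 1 probe set kept for each gene, 4 of the 17 also fell, against 374 of 13187 genes. The median log2 change of the 17 was -0.75. The 4 are consecutive steps of the route apart from Fdps, which lies between Idi1 and Fdft1: the isomerase that interconverts the 5-carbon isoprenoid diphosphates, squalene synthase, squalene epoxidase and lanosterol synthase. The groups did not overlap in 11 of the 17 genes, or 64.7%, with the arrays labelled double knockout below in 10 and above in 1, Ebp. By probe set the share was 24.3% over all tested, dim ones included, and no share by gene was computed. The number of enzymes that fell was 2 without double knockout replicate 1 or 3 or wild type replicate 2, namely Idi1 and Sqle in each case, and 7 without wild type replicate 3. The summed markers of double negative thymocytes were also lower in the arrays labelled double knockout, as given above, and their part in these values was not tested.

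Idi1, which makes dimethylallyl diphosphate and so commits carbon to longer isoprenoids, read 410, 370 and 296 on the arrays labelled double knockout, against 1280, 1337 and 1632 on those labelled wild type. Every array labelled double knockout was far below every array labelled wild type. The mean was 358 ± 57.9 for the arrays labelled double knockout and 1416 ± 189 for those labelled wild type (SD, n = 3 each), and the log2 change was -1.96 (SE 0.24, limma adjusted p = 0.000964), a ratio of 0.257. A further Idi1 probe set gave -2.08 (SE 0.24, adjusted p = 0.000619), from 328, 333 and 307 on the arrays labelled double knockout and 1705, 1073 and 1496 on those labelled wild type. Both probe sets of the gene therefore fell by about the same amount.

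Sqle, squalene epoxidase, the first oxygen-requiring and a rate-limiting step, had the next largest fall among the members. It read 71.7, 93.9 and 80.9 on the arrays labelled double knockout, against 420, 344 and 262 on those labelled wild type. The log2 change was -1.87 (SE 0.25, adjusted p = 0.00179), a ratio of 0.274. Idi1 and Sqle, together with Abca1 below, passed in each of the 16 alternative settings run.

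Fdft1, squalene synthase, the first step that serves sterols alone, read 533, 592 and 419 on the arrays labelled double knockout, against 1024, 1094 and 1467 on those labelled wild type. The groups were apart, and the log2 change was -1.20 (SE 0.25, adjusted p = 0.0174). Its dimmer tested probe set gave -1.05 (SE 0.28, adjusted p = 0.0557), so the sizes were close and the calls differed. Lss, which closes the rings of lanosterol, read 115, 88.8 and 104 on the arrays labelled double knockout, against 315, 290 and 189 on those labelled wild type. The Lss change was -1.24 (SE 0.27, adjusted p = 0.0219), with wild type replicate 3 nearest to the other group. A dim Lss probe set gave -0.68 (SE 0.33, adjusted p = 0.299). The Fdft1 and Lss probe sets that passed are of the types whose names mark possible reading of several sequences, and each call was lost in some settings, with adjusted p up to 0.0948 for Fdft1 and up to 0.0925 for Lss over the alternatives. Lss did not pass without any 1 array other than wild type replicate 3, and Fdft1 did not pass without double knockout replicate 1 or 3 or wild type replicate 2.

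**Figure D2:**
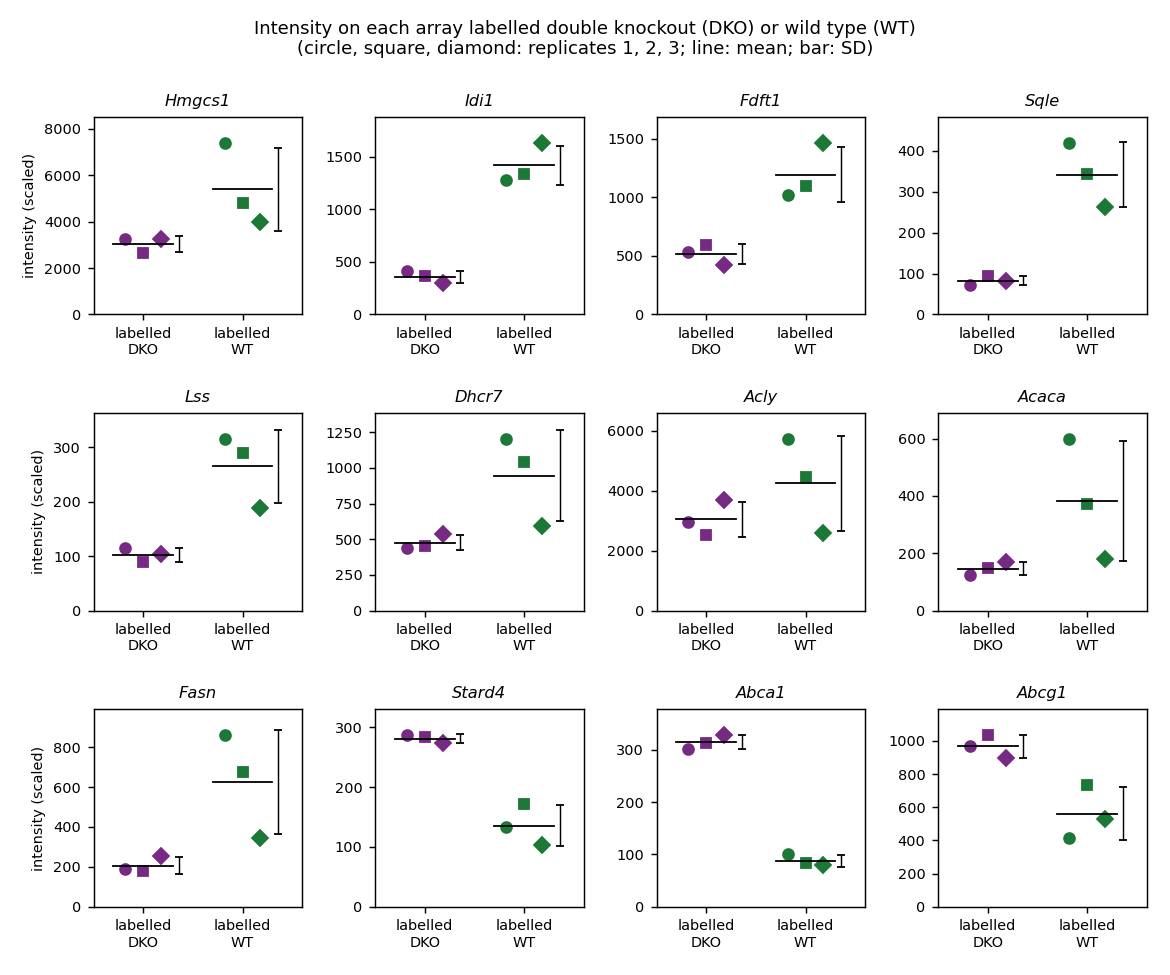
Deposited intensity (vertical axis, linear and from 0) on each array for 12 members, with the 3 arrays labelled double knockout left of the 3 labelled wild type; symbols mark the replicate, lines the mean and bars the SD. For Idi1, Fdft1, Sqle and Lss the arrays labelled double knockout sit below all those labelled wild type, for Abca1, Abcg1 and Stard4 above, and for Acaca and Dhcr7 wild type replicate 3 lies close to them.

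Upstream of Idi1, the mevalonate enzymes gave mixed values. Hmgcs1, the cytosolic HMG-CoA synthase, read 3254, 2648 and 3247 on the arrays labelled double knockout, against 7401, 4789 and 3999 on those labelled wild type, with no overlap (-0.79, SE 0.24, adjusted p = 0.0884). The other Hmgcs1 probe sets, all dimmer, gave changes between -0.55 and 0.15 and did not pass. Mevalonate kinase, Mvk, gave 0.18 (95% interval -0.40 to 0.76), phosphomevalonate kinase, Pmvk, gave -0.13 (-0.71 to 0.45) and the decarboxylase Mvd gave -0.40 (-1.07 to 0.27), and the groups overlapped in all 3 genes. Fdps, the farnesyl diphosphate synthase that also feeds protein prenylation, read 113, 143 and 86.0 on the arrays labelled double knockout, against 148, 308 and 179 on those labelled wild type, a change of -0.79 (SE 0.31, adjusted p = 0.19).

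Downstream of lanosterol no enzyme passed on its brightest probe set. Cyp51, the lanosterol demethylase, gave -0.75 (SE 0.29, adjusted p = 0.179) on that probe set, but fell on another, which read 42.9, 59.6 and 48.5 on the arrays labelled double knockout, against 133, 132 and 107 on those labelled wild type (-1.10, SE 0.23, adjusted p = 0.0202). Dhcr7, which makes cholesterol from 7-dehydrocholesterol, read 438, 455 and 534 on the arrays labelled double knockout, against 1203, 1044 and 592 on those labelled wild type, a change of -0.93 (SE 0.29, adjusted p = 0.0926). Its groups did not overlap, and wild type replicate 3 lay just above the other group. The C4 demethylation enzymes Msmo1 and Nsdhl gave -0.93 (SE 0.31, adjusted p = 0.113) and -0.58 (SE 0.28, adjusted p = 0.298), and Hsd17b7, the reductase of the same complex, gave -0.57 (SE 0.27, adjusted p = 0.275). Dim Hsd17b7 probe sets gave 0.30 and 0.04, with overlap.

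A few late enzymes did not lie below 0 or lay close to it. Ebp, the sterol isomerase, read 1648, 1488 and 1405 on the arrays labelled double knockout, against 705, 1095 and 1070 on those labelled wild type. All of the arrays labelled double knockout were higher, with a change of 0.66 (SE 0.25, adjusted p = 0.175). Tm7sf2, a sterol 14-reductase, gave 0.15 (95% interval -0.43 to 0.72), and Sc5d, the lathosterol desaturase, gave -0.20 (-0.71 to 0.30). Ebp and Nsdhl are X-linked, and Xist and Eif2s3y differed between arrays as given above; the part of this in their values was not tested.

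The genes of sterol sensing did not pass, including those of the SREBP factors themselves. In limma 0 of the 8 sensing and transport genes passed, and 3, Insig2, Stard4 and Npc1, had an unadjusted p under 0.05. Over all 27022 probe sets tested, 5069 had an unadjusted limma p under 0.05. Srebf1, which encodes SREBP-1, read 682, 612 and 610 on the arrays labelled double knockout, against 867, 649 and 599 on those labelled wild type, with overlapping groups and a change of -0.15 (95% interval -0.67 to 0.37, adjusted p = 0.794). Srebf2, which encodes SREBP-2, the main driver of the sterol branch, read 90.1, 37.4 and 100 on the arrays labelled double knockout, against 86.8, 109 and 66.2 on those labelled wild type. That probe set gave -0.25 (SE 0.33, adjusted p = 0.756). The dimmer one gave 72.6, 55.8 and 36.9 on the arrays labelled double knockout, against 104, 123 and 104 on those labelled wild type, without overlap (-0.88, SE 0.26, adjusted p = 0.0839). The 2 Srebf2 probe sets thus differed in whether the groups overlapped. Scap gave 512, 319 and 550 on the arrays labelled double knockout, against 644, 568 and 458 on those labelled wild type, a change of -0.31 (SE 0.28, adjusted p = 0.624).

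Insig1, itself a known SREBP target, read 236, 274 and 142 on the arrays labelled double knockout, against 267, 251 and 367 on those labelled wild type, with overlap and a change of -0.46 (SE 0.28, adjusted p = 0.428). Insig2, its relative that does not need SREBP for expression, read 310, 318 and 249 on the arrays labelled double knockout, against 156, 160 and 217 on those labelled wild type. The Insig2 groups were apart, and its 3 probe sets gave 0.66, 0.77 and 0.49 (adjusted p between 0.159 and 0.307), so none passed. Stard4, a cytosolic sterol carrier, read 287, 283 and 273 on the arrays labelled double knockout, against 133, 171 and 103 on those labelled wild type (0.98, SE 0.26, adjusted p = 0.0523), while its other probe sets gave 0.14 and -0.27. Npc1 and Npc2 release cholesterol from lysosomes. Npc1 read 285, 353 and 278 on the arrays labelled double knockout, against 122, 216 and 157 on those labelled wild type, a change of 0.84 (SE 0.27, adjusted p = 0.11) without overlap, and Npc2 gave 0.31 (SE 0.18, adjusted p = 0.403).

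Of the 3 measured genes of sterol efflux, 1 rose and none fell. Abca1, which loads cholesterol onto lipoproteins, read 301, 313 and 328 on the arrays labelled double knockout, against 101, 82.8 and 79.0 on those labelled wild type. The groups were tight and apart, and the change for Abca1 was 1.66 in log2 (SE 0.23, adjusted p = 0.00205), a ratio of 3.16. A dim Abca1 probe set gave 0.51 (SE 0.31), and another lay too low to be tested. Abcg1, the partner transporter, read 971, 1035 and 897 on the arrays labelled double knockout, against 417, 733 and 531 on those labelled wild type. Its change of 0.79 (SE 0.27, adjusted p = 0.124) did not pass although the groups did not overlap. Nr1h3, the gene of LXR alpha, was dim and overlapped (20.1, 22.9 and 32.3 on the arrays labelled double knockout, against 23.6, 31.1 and 29.9 on those labelled wild type, change -0.13, SE 0.26). ABCA1 is also expressed by macrophages. The 11 macrophage and dendritic cell markers summed to 1907 to 2261 on the arrays labelled double knockout and 1048 to 2982 on those labelled wild type. Lyz2 made up most of this sum, with means of 1709 on the arrays labelled double knockout and 1477 on those labelled wild type. C1qc and Marco were at or below the brightest control on the 6 arrays. They also lay under the intensity filter and were not tested, and none of the other 9 passed. The 4 B cell markers summed to 2013, 2249 and 2036 on the arrays labelled double knockout, against 853, 1460 and 1278 on those labelled wild type. Most of that sum is Cd79b, which averaged 1840 on the arrays labelled double knockout and 870 on those labelled wild type and rose. The other B cell markers, Cd79a, Ms4a1 and Pax5, gave log2 changes of -0.60, -0.15 and -0.02 and did not pass. The part of these markers in the efflux values was not tested.

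In the fatty acid branch 1 of 11 genes fell and none rose, with a median log2 change of -0.31 and 8 of 11 below 0. With 1 probe set kept for each gene, 1 of the 11 also passed, against 920 of 13187 genes, 374 of them lower. Fasn, the fatty acid synthase, read 187, 177 and 255 on the arrays labelled double knockout, against 861, 675 and 344 on those labelled wild type. It fell, with no overlap, to a ratio of 0.36 (log2 change -1.47, SE 0.33, adjusted p = 0.0264). The call was lost without any 1 array other than wild type replicate 3, with adjusted p up to 0.13 over the alternatives. Acaca, the acetyl-CoA carboxylase that supplies malonyl-CoA, read 124, 148 and 168 on the arrays labelled double knockout, against 599, 371 and 180 on those labelled wild type (-1.17, SE 0.36, adjusted p = 0.0932). Wild type replicate 3 was again the array nearest to the other group.

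Acly, which makes cytosolic acetyl-CoA from citrate for both branches, read 2951, 2524 and 3672 on the arrays labelled double knockout, against 5722, 4450 and 2577 on those labelled wild type, with overlap and a change of -0.44 (SE 0.29, adjusted p = 0.465). The next brightest Acly probe set gave 0.01 (SE 0.25), and the dimmer ones gave changes between -0.70 and 0.92, none of which passed. Fads2, the delta-6 desaturase of polyunsaturated fatty acids, read 194, 188 and 112 on the arrays labelled double knockout, against 296, 300 and 400 on those labelled wild type (-0.98, SE 0.27, adjusted p = 0.0623). On a dimmer probe set it fell to 64.7, 29.2 and 60.4 on the arrays labelled double knockout, against 118, 158 and 137 on those labelled wild type (-1.24, SE 0.29, adjusted p = 0.0311), while a further one gave -1.13 with overlap (SE 0.53, adjusted p = 0.281). Desaturation and elongation genes otherwise gave small or mixed values. The stearoyl-CoA desaturase Scd2 read 3065, 2861 and 3157 on the arrays labelled double knockout, against 3870, 4414 and 2822 on those labelled wild type (-0.28, 95% interval -0.78 to 0.21), and Scd1 gave 0.65 (-0.15 to 1.44). The elongases Elovl1, Elovl5 and Elovl6 gave 0.27, 0.14 and -0.31, the delta-5 desaturase Fads1 gave -0.16 and the acyl-CoA synthetase Acsl3 gave -0.47, and none of these passed.

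The branches were also set against each other on the same arrays. The mean log2 value of the 17 sterol genes was 8.05, 7.94 and 7.91 on the arrays labelled double knockout, against 8.53, 8.76 and 8.61 on those labelled wild type, a difference of -0.67. For the 11 fatty acid genes it was 9.10, 9.02 and 9.06 on the arrays labelled double knockout, against 9.62, 9.69 and 9.03 on those labelled wild type, a difference of -0.39. The sterol groups were apart, and the fatty acid groups overlapped, with wild type replicate 3 among the arrays labelled double knockout. The sterol mean minus the fatty acid mean differed by -0.28 between the groups, by -0.09 without wild type replicate 3 and by -0.42 without wild type replicate 1. No test was made of these means, since their members were chosen with results known.

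Wild type replicate 3 was the lowest of the arrays labelled wild type in 9 of 11 fatty acid genes, and in 6 of 17 sterol genes, where it was the highest in 7. It is also the array with the least granulocyte signal, 352 against 12322 and 27514 on wild type replicates 1 and 2. It stood apart in other markers too. The 3 erythroid markers summed to 234 to 336 on the arrays labelled double knockout and to 3187 on wild type replicate 3, nearly all from Alas2 at 3142, against 253 and 24.8 on wild type replicates 1 and 2. The double negative thymocyte markers summed to 35136, against 24941 and 25088. The largest difference was in Cd3g, at 8474 against 2443 and 3118, and Dntt, Ptcra and Rag1 were also higher. Rag2 and Notch1 lay between replicates 1 and 2. Cd3e, at 388 against 1052 and 802, and Il2ra, at 807 against 867 and 815, were lower. The part of these markers in the fatty acid values was not tested. Markers of fat cells gave summed intensities of 57.6 to 101 on the arrays labelled double knockout and 37.2 to 113 on those labelled wild type, and Adipoq, Cidec and Lep were at or below the brightest control on all 6 arrays. Without wild type replicate 3, Acaca (-1.62, limma adjusted p = 0.00249), Acly (-0.77, adjusted p = 0.0391), Hmgcs1 (adjusted p = 0.0119), Dhcr7 (-1.24, adjusted p = 0.00491) and Nsdhl (-0.85, adjusted p = 0.0448) fell beside the 5 members named before. In that setting 2767 of the 27022 probe sets passed, 1381 of them lower, against 1358 and 571 with all 6 arrays.

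**Figure D3:**
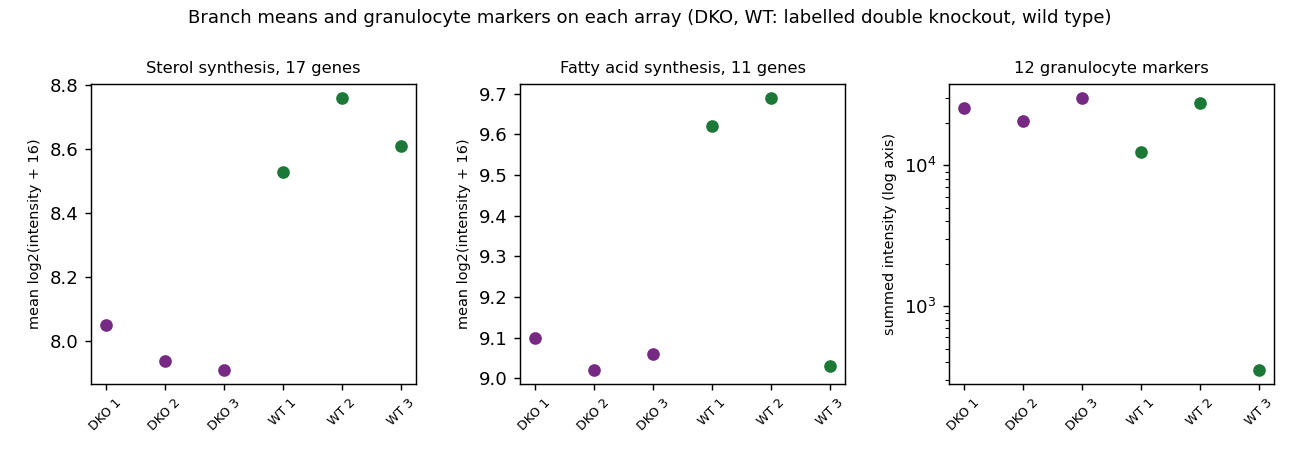
Mean log2(intensity + 16) of the 17 sterol and 11 fatty acid synthesis genes, and summed intensity of 12 granulocyte markers (log axis), on each array, with the 3 arrays labelled double knockout left of those labelled wild type. Wild type replicate 3 stays with its group for the sterol genes at 8.61 and joins the other group for the fatty acid genes at 9.03, and reads 352 for the granulocyte markers.

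Related genes outside the list were read in the same fit. Of 38 measured, 3 rose and 1 fell in the arrays labelled double knockout, with a median log2 change of -0.10. With 1 probe set kept for each gene, 4 of the 38 passed, against 920 of 13187 genes, 546 higher and 374 lower. Fabp5, a fatty acid binding protein, read 2536, 2168 and 3113 on the arrays labelled double knockout, against 12699, 7602 and 9173 on those labelled wild type, and fell (log2 change -1.91, SE 0.23, adjusted p = 0.000795). Mbtps1, the site-1 protease that cleaves SREBP in the Golgi, read 1719, 2175 and 1577 on the arrays labelled double knockout, against 693, 887 and 965 on those labelled wild type, and rose by 1.07 (SE 0.24, adjusted p = 0.0243). Its other probe sets gave 1.06 each and passed as well. Rnf145, an endoplasmic reticulum ubiquitin ligase, read 2092, 2062 and 1110 on the arrays labelled double knockout, against 621, 712 and 820 on those labelled wild type (1.21, SE 0.28, adjusted p = 0.0313).

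Lpcat3, a phospholipid-remodelling enzyme, read 652, 758 and 601 on the arrays labelled double knockout, against 271, 392 and 307 on those labelled wild type. It rose by 1.01 (SE 0.25, adjusted p = 0.0408). Mylip and Acss2 are given although their brightest probe sets did not pass, a choice made after their values were seen. Both had changes above 0, whereas 21 of the 38 genes lay below 0 and 17 above. The acyl-CoA synthetase Acsl5 was also near the threshold, in the other direction and without overlap (-0.78, SE 0.23, limma adjusted p = 0.0727). Mylip, a ubiquitin ligase of lipoprotein receptors, gave 1.00 (SE 0.28, adjusted p = 0.0633) with no overlap. Acss2, which makes acetyl-CoA from acetate, gave 1.17 (SE 0.33, adjusted p = 0.0628), and its dimmer probe set gave 350, 306 and 437 on the arrays labelled double knockout, against 123, 83 and 160 on those labelled wild type (1.47, SE 0.27, adjusted p = 0.0105). Without wild type replicate 2 or double knockout replicate 1 or 2, Fabp5 was the only 1 of the 38 to pass, and the calls of Lpcat3, Mbtps1 and Rnf145 had adjusted p up to 0.193, 0.138 and 0.196 over the alternatives.

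**Figure D4:**
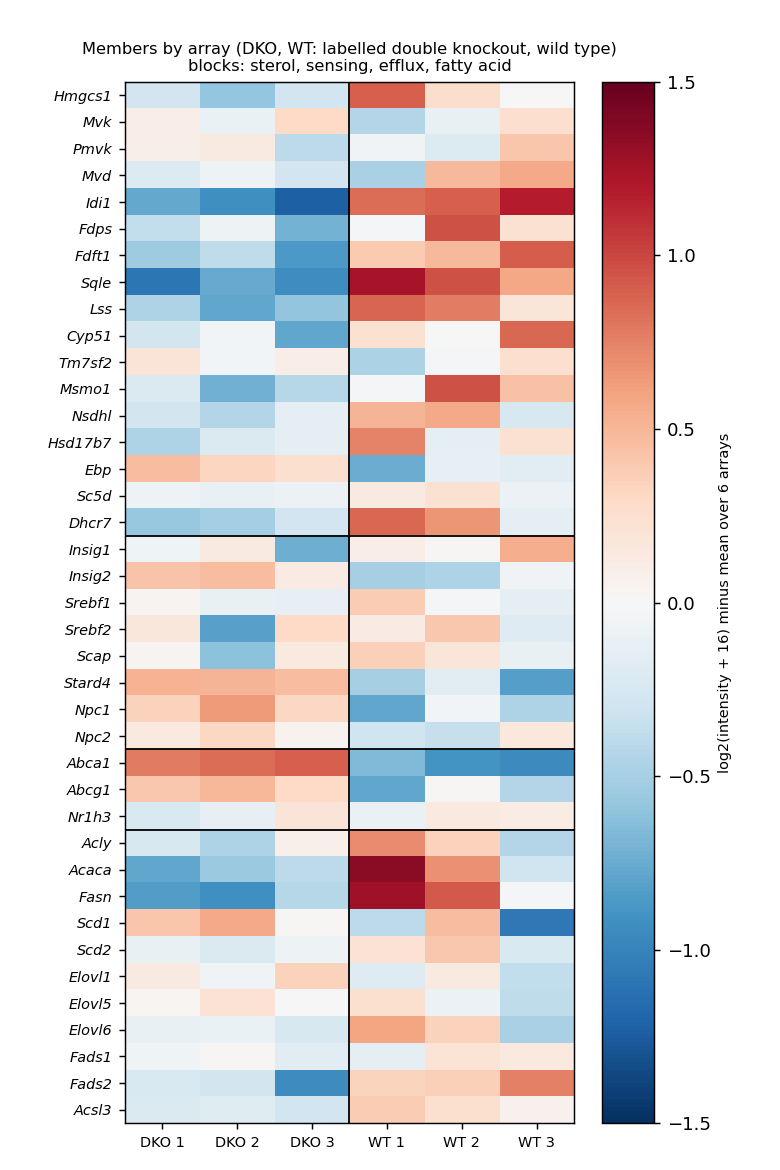
Log2(intensity + 16) of each member on each array as a difference from its mean over the 6 arrays (colour scale, red above and blue below), with arrays labelled double knockout left of those labelled wild type and rows in pathway order within 4 blocks. The rows from Idi1 to Lss turn from blue to red between the groups except for weaker contrast in Fdps, and Abca1 and Stard4 show the opposite order.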

How the data were processed

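Per the labels, 6 single-colour arrays carry amplified RNA of sorted double negative thymocytes, 3 labelled double knockout and 3 labelled wild type. The table deposited by the authors holds intensity on a linear scale, scaled so that the trimmed mean over the middle 96% of probe sets is 150.0 per array; no source used here names the software. From 45101 probe sets, 64 controls were left out. Genes were named by a platform annotation (34945 probe sets with 1 symbol, 932 with several, 9160 with none here), and promoters by symbol in a RefSeq table, where 32 of 41 members matched. Values were used as log2(intensity + 16), which understates changes of dim genes, centred on each array's median because medians differed by 0.126 (limit 0.1). Probe sets under the 40th percentile of mean log2 value (an intensity of 13.2) were left out. The 27022 others were tested across all genes with limma 3.58.1 in R 4.3.3 (eBayes with trend, Benjamini-Hochberg adjustment over all of them, threshold 0.05), a step also tested on simulated data. A gene stands by its brightest probe set. SE is limma's moderated standard error, and intervals are 95%. Alternatives covered scaling, offset, filter, trend, array weights, a replicate block, each array left out and the probe set rule. Members, lists and the rule for named genes (members that passed, 10 fixed members, other pathway genes that passed, Egr1) were chosen with earlier results of these data known. Mylip, Acss2 and Acsl5 were added after their values were seen. Some genes of the pathway are not reported here.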

Additional observations from a re-analysis of the deposited data

How the results depend on the processing

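Idi1, Sqle, Abca1 and Fabp5 kept their direction and passed in each of 16 alternatives. With array weights 20 probe sets and 15 genes of the members passed, 9 of the sterol, 3 of the fatty acid, 2 of the sensing and 8 of the other pathway genes; over all 27022 probe sets 3417 passed, against 1358. With the replicate number as a block these counts were 4 and 3, then 2, 0, 0 and 1. Over all probe sets the block gave 573 calls. Deviations from group means correlated at -0.047, -0.133 and -0.291 between arrays of the same number. With 3 arrays a group these correlations cannot show whether the arrays were paired. Stard4 alone of the sensing and transport genes passed (count 1) in values as deposited, with quantile normalization, with an offset of 64, with a filter at the 60th percentile and with 1 probe set for each gene. Counting any probe set of a gene gave 2 fatty acid genes. Leaving out 1 array gave between 4 and 16 member probe sets, 3 and 11 member genes, 2 and 7 sterol genes, 0 and 3 fatty acid genes, 1 and 6 other pathway genes, and a branch difference between -0.42 and -0.09; the causes were not tested. With 3 arrays a group their number limits precision, and 12 of 92 member probe sets were too dim to test.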
